A study of Mus musculus with 11 samples.

Results

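The genes described here are 38 mouse imprinted genes, listed by symbol for their known parent-of-origin expression. The rule used no value of these data, but the list was drawn up with earlier results of them known. They were followed in 9 bulk RNA libraries and in 2 single-cell libraries of naive extra-embryonic endoderm (nEnd), a mouse culture model of the primitive endoderm. All 38 symbols were found in the bulk table of 48952 genes and in the single-cell tables of 32285 genes. nEnd was grown on mouse embryonic fibroblast feeders in RACL, an RPMI-based medium with Activin A, the GSK3 inhibitor CHIR99021 and LIF. For the bulk libraries, an OCT4-mCherry line, in which mCherry reports the OCT4 protein, was sorted by flow cytometry on the reporter and on an antibody to the endoderm surface receptor PDGFRA, with 3 libraries per gate and no further treatment. Pdgfra+ cells carried the receptor alone, DP cells carried both the receptor and the reporter, and Oct4+ cells carried the reporter alone. For the single-cell libraries, PDGFRA+ nEnd of an inducible Oct4 loss-of-function line (Oct4LOF, both alleles inducible by 4-hydroxytamoxifen, 4OHT) was cultured without 4OHT (-4OHT) or after a pulse of it (+4OHT), live cells were sorted, and 1 library was made per condition. Each experiment used 1 line, so the values are those of these lines, and the feeder cells were a possible source of RNA in both.

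An imprinted gene is expressed from the copy inherited from 1 parent, because DNA methylation laid down in the egg or the sperm, or in some cases a histone mark of the egg, distinguishes the copies. Imprinted genes lie in clusters that share a control region, and many clusters hold both growth-promoting, paternally expressed genes and growth-restraining, maternally expressed ones. A long noncoding RNA often runs across the cluster and silences its neighbours on the same chromosome. Many of these genes act in the placenta and the extra-embryonic membranes. The libraries give total RNA of both parental copies. Nothing below measures which copy was expressed or whether an imprint was kept.

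The promoters of 4 members are shown, those of the neighbours Peg3, Usp29 and Zim1 and that of Meg3. In bulk, as given below, Peg3 and Zim1 fell together from Pdgfra+ to Oct4+ while Usp29 was not called. Meg3 rose with other noncoding RNAs of its cluster. Each sequence covers 250 bases before and 50 bases from the transcription start, read 5′ to 3′ on the strand of the gene, from RefSeq on GRCm38.p6. Peg3, a zinc-finger gene expressed from the paternal copy, and Usp29, a paternally expressed ubiquitin protease gene, start back to back on chromosome 7. The Peg3 window is chr7:6730370-6730669 on the minus strand and the Usp29 window is chr7:6730333-6730632 on the plus strand, with the 50 bases from the start in capitals.
Peg3: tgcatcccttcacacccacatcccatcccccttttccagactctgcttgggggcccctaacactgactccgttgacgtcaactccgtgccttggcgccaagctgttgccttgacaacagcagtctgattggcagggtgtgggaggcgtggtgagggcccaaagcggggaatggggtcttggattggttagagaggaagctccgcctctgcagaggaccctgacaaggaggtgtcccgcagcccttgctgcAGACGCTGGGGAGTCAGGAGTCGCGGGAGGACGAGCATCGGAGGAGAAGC
Usp29: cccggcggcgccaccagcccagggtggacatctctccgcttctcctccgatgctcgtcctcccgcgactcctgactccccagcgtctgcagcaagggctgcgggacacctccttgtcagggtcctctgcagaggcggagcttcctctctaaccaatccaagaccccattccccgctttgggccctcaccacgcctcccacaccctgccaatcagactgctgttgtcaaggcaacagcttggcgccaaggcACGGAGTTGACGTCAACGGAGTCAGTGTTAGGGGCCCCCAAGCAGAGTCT
The starts lay 164 bases apart, and the windows shared 263 bases that were identical when read on 1 strand. The same neighbourhood holds Zim1, a maternally expressed zinc-finger gene, with the window chr7:6696383-6696682 on the minus strand. Meg3, a maternally expressed noncoding RNA of the Dlk1-Dio3 cluster, has the window chr12:109540746-109541045 on the plus strand. In these windows the capitals mark TGCCGC or its reverse complement GCGGCA, the hexamer that the imprint-keeping protein ZFP57 binds when it is methylated.
Zim1: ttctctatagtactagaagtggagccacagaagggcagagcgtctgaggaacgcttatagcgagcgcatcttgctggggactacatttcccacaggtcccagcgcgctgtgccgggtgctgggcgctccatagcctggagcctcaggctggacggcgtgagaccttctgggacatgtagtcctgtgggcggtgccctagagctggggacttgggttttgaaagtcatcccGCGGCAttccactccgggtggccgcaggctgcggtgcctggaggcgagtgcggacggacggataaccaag
Meg3: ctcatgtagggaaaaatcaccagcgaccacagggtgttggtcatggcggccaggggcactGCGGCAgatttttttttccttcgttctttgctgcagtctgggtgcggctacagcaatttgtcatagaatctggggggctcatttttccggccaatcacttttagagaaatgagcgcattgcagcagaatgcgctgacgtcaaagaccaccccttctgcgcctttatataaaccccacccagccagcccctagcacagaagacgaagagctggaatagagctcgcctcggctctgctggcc
The Peg3 and Usp29 windows held no copy of the hexamer and 13 and 17 CpG dinucleotides, and the Zim1 and Meg3 windows held 1 copy each and 20 and 13 CpG. Searched on both strands, the hexamer stood in 11 of 47 windows of 31 members (23.4%) and in 3813 of all 32851 windows (11.6%). The 11 windows belonged to 10 genes, since overlapping windows of Mest were each counted. The median window of a member held 14 CpG, against 7 over all windows. The hexamer itself holds a CpG, and the shares were not matched on CpG number. A match is a description of the letters and no evidence of binding, and 7 members (Peg10, Cdkn1c, Peg13, Sgce, H19, Rtl1 and Impact) had no window in the table used.

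The bulk libraries held 8019631 to 11642571 counts each. Levels are given as CPM, the counts-per-million of a library after scaling. The genes of the sort followed the gates, with Pou5f1, which encodes OCT4, at 26.4, 8.37 and 17.6 CPM in Pdgfra+, 132, 245 and 310.3 CPM in DP and 1137, 944 and 861 CPM in Oct4+. Pdgfra lay between 420.1 and 967 CPM in Pdgfra+ and DP and between 4.96 and 12.1 CPM in Oct4+. A set of 10 endoderm markers summed to 21246 to 26698 CPM in Pdgfra+, 16513 to 19046 CPM in DP and 161 to 354 CPM in Oct4+. A set of 10 epiblast markers ran the other way, with 154 to 258, 733 to 1182 and 4106 to 5676 CPM. The sum of 10 fibroblast markers overlapped between the gates, at 53.1 to 144, 18.95 to 62.7 and 27.8 to 171 CPM, and was highest in Oct4+ replicate 1. The sum of 8 trophectoderm markers was low but separated by gate, at 19.7 to 24.05 CPM in Pdgfra+, 41.1 to 45.8 CPM in DP and 28.2 to 33.03 CPM in Oct4+. The part of minor cell types in the results below was not tested, and in sorted bulk RNA fewer cells of a type and less RNA per cell cannot be told apart.

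Of the 38 members, 33 passed the low-count filter and were tested among 14185 genes. The other 5 had few reads. Slc22a3, a transporter gene of the Igf2r cluster, and Rtl1, a retrotransposon-derived gene of the Dlk1-Dio3 cluster, had 4 and 2 reads over the 9 libraries. Magel2 had 2, 1 and 53 reads in the sums of Pdgfra+, DP and Oct4+, Nap1l5 had 1, 0 and 52, and Slc22a18 had 1, 3 and 40. Most reads of those 3 genes came from Oct4+, but they were not tested.

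Between Oct4+ and Pdgfra+ members of most clusters differed, some higher in the endoderm gate and some in the reporter-only gate. At an edgeR adjusted p below 0.05, 25 of 33 members (75.8%) were called, 10 higher and 15 lower in Oct4+, where 63.2% of all tested genes were called, 31.8% higher and 31.5% lower. An absolute log2 fold change above 1.5 was also passed by 21 members (63.6%), 7 higher and 14 lower, against 32.0% of all tested genes, 17.3% higher and 14.7% lower. The median absolute log2 fold change was 2.68 over the members and 0.88 over all tested genes. Libraries of the gates did not overlap for 25 of the 33 members, and for 69.3% of all tested genes. Both parental classes held both directions. Of 10 maternally expressed members 4 were higher and 4 lower in Oct4+, and of 21 paternally expressed members 5 were higher and 10 lower. The study's text calls the 3 libraries of a gate biological replicates, and the labels do not say whether they came from separate cultures.

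**Figure D1:**
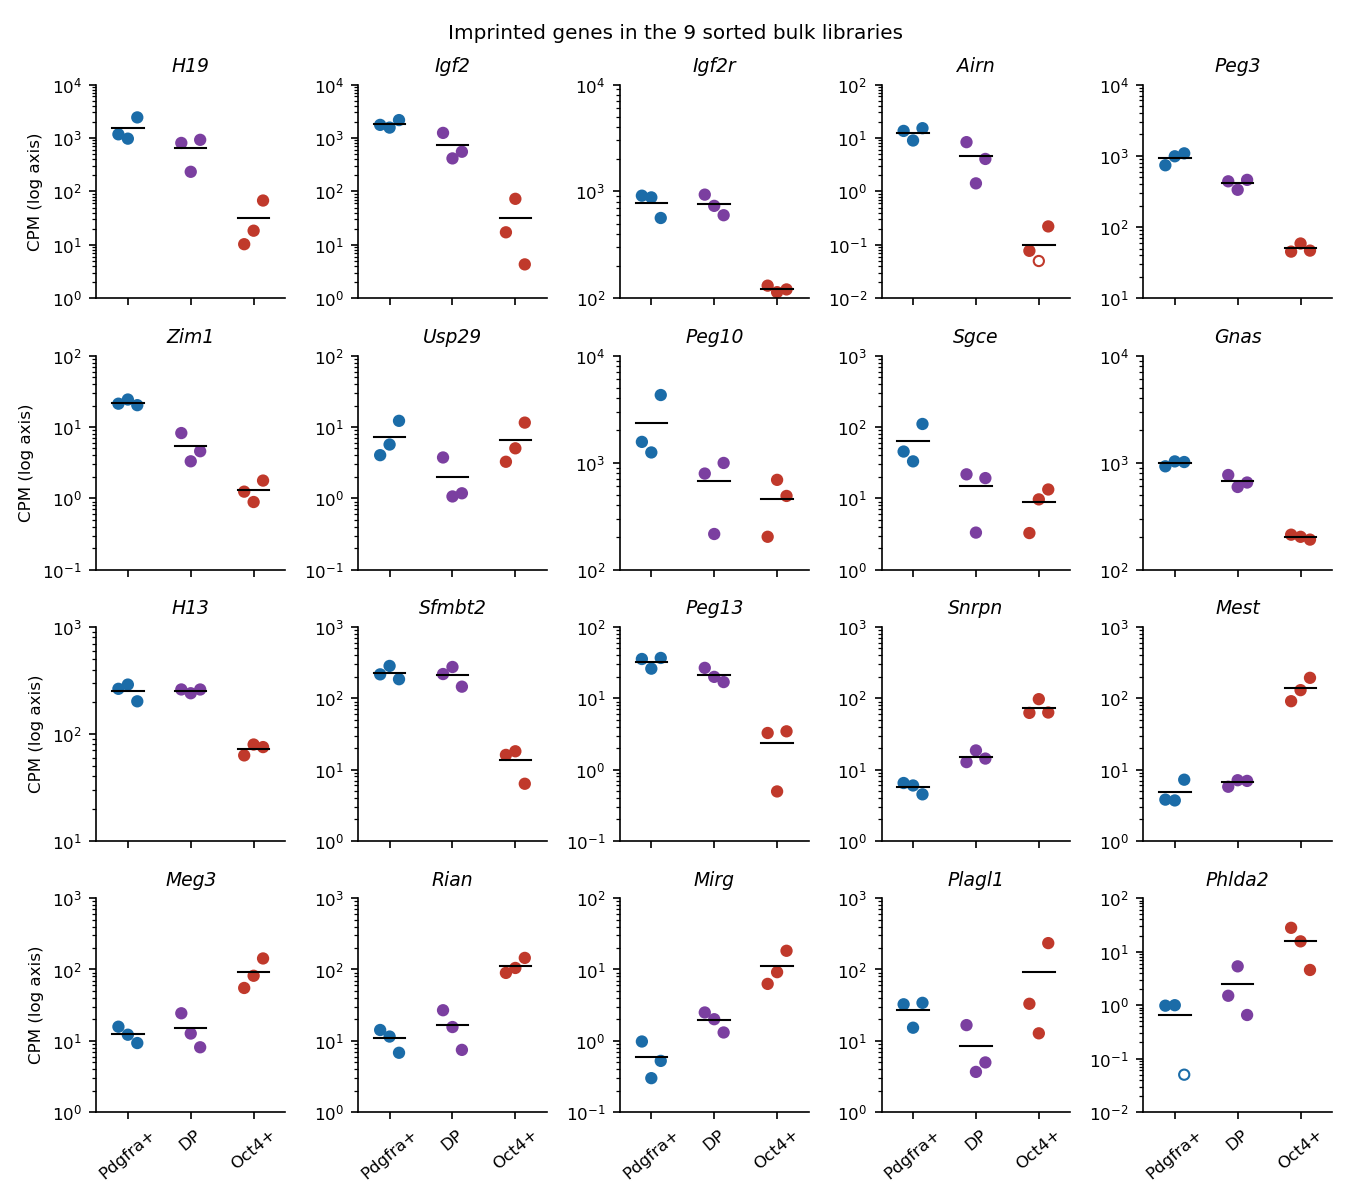
CPM (log axis) of 20 imprinted genes in the 9 bulk libraries, coloured by gate, with a black line at each group mean and open circles, drawn at 0.05 CPM, for libraries with 0 reads. H19, Igf2 and Peg3 sit highest in Pdgfra+ and lowest in Oct4+ (Peg3 means 934, 410.5 and 50.3 CPM), and Mest, Snrpn, Meg3 and Rian sit highest in Oct4+.

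The Igf2-H19 cluster was among the genes high in endoderm. Igf2, the paternally expressed insulin-like growth factor, stood at 1757, 1563 and 2159.6 CPM in Pdgfra+, 1244, 415 and 552 CPM in DP and 17.2, 72.8 and 4.32 CPM in Oct4+. H19, the maternally expressed noncoding RNA that competes with Igf2 for shared enhancers, stood at 1170.5, 971 and 2425 CPM in Pdgfra+, 807, 233 and 923 CPM in DP and 10.3, 18.4 and 67.6 CPM in Oct4+. Every Oct4+ library was below every DP and Pdgfra+ library for both genes, while DP and Pdgfra+ did not overlap either. From Pdgfra+ to Oct4+, Igf2 fell by 5.86 on the log2 scale (SE 0.90, edgeR adjusted p = 0.000315) and H19 fell by 5.58 (SE 0.82, adjusted p = 0.000240). A pair of neighbours that are expressed from opposite parental copies therefore had their highest libraries in the same gate.

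The Igf2r cluster also fell. Igf2r, the maternally expressed receptor that clears IGF2 from the cell surface, had 913, 879.7 and 565 CPM in Pdgfra+, 934, 733 and 599 CPM in DP and 132, 114 and 121 CPM in Oct4+, a fall of 2.68 on the log2 scale from Pdgfra+ to Oct4+ (SE 0.22, edgeR adjusted p = 7.97e-06). Airn, the paternal noncoding RNA that overlaps Igf2r on the opposite strand and silences its paternal copy, had 13.5, 8.97 and 15.2 CPM in Pdgfra+, 8.35, 1.42 and 4.05 CPM in DP and 0.0775, 0 and 0.222 CPM in Oct4+. Airn was near 0 in every Oct4+ library, with 3 reads in all against 347 in Pdgfra+. The ratio of summed reads, each over the summed library sizes, was 134 with a 95% counting interval of 45.4 to 651, which covers counting error only. Igf2r and Airn overlap over 28354 bases, and whether the bulk counting used strand is not given in the sources used here, so reads of the pair may be shared.

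Peg3 had the lowest adjusted p of the members. It had 736, 984 and 1082 CPM in Pdgfra+, 438, 334 and 459 CPM in DP and 45.3, 58.9 and 46.8 CPM in Oct4+, or 934 ± 178, 410.5 ± 67.4 and 50.3 ± 7.45 CPM (mean ± SD, n = 3). The gates did not overlap, and Peg3 fell by 4.22 on the log2 scale from Pdgfra+ to Oct4+ (SE 0.21, edgeR adjusted p = 1.15e-06). Zim1 had 21.2, 24.3 and 20.3 CPM in Pdgfra+, 8.23, 3.30 and 4.57 CPM in DP and 1.24, 0.887 and 1.77 CPM in Oct4+, again without overlap, and fell by 4.07 (SE 0.40, adjusted p = 2.12e-05). Usp29 had 4.03, 5.68 and 12.2 CPM in Pdgfra+, 3.74, 1.06 and 1.18 CPM in DP and 3.26, 5.03 and 11.5 CPM in Oct4+. Pdgfra+ and Oct4+ overlapped for Usp29, and its log2 difference of -0.16 was not called. In bulk, the divergent genes whose promoter windows share 263 bases thus had unlike profiles over the gates. The mean of Peg3 was lowest in Oct4+ and that of Usp29 in DP, with Usp29 at 12.2 CPM or less in every library. The genes of the pair lie on opposite strands, 146 bases apart and without the overlap of Igf2r and Airn, and the use of strand in the counting is not given.

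The Peg10 cluster fell with more spread. Peg10, a paternally expressed retrotransposon-derived gene needed for the placenta, had 1564, 1246 and 4291 CPM in Pdgfra+, 791, 215 and 994 CPM in DP and 203, 691 and 488 CPM in Oct4+. Sgce, which encodes epsilon-sarcoglycan and starts 98 bases from Peg10 on the opposite strand, had 45.3, 32.98 and 110.3 CPM in Pdgfra+, 21.7, 3.30 and 19.2 CPM in DP and 3.26, 9.66 and 13.3 CPM in Oct4+. Pdgfra+ lay above the other gates for both genes, while DP and Oct4+ overlapped. From Pdgfra+ to Oct4+, Peg10 fell by 2.36 on the log2 scale (SE 0.66, edgeR adjusted p = 0.00980) and Sgce fell by 2.86 (SE 0.72, adjusted p = 0.00583). Replicate 3 was the highest Pdgfra+ library for Peg10, Sgce, H19 and Igf2.

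Gnas and Sfmbt2 were also lowest in Oct4+. Gnas, a complex locus that gives maternal, paternal and biallelic transcripts and encodes the stimulatory G protein alpha subunit, had 924, 1027 and 1014 CPM in Pdgfra+, 766, 593 and 652 CPM in DP and 212, 203 and 191 CPM in Oct4+. Its gates did not overlap, and it fell by 2.29 on the log2 scale from Pdgfra+ to Oct4+ (SE 0.13, edgeR adjusted p = 1.63e-06), with transcripts of different parental origin summed. Sfmbt2, a Polycomb-associated gene whose paternal expression in extra-embryonic tissue rests on a histone mark of the egg, had 216, 284 and 185 CPM in Pdgfra+, 219, 274 and 145 CPM in DP and 16.0, 18.0 and 6.32 CPM in Oct4+. DP and Pdgfra+ overlapped for Sfmbt2, both lay above Oct4+, and the fall was 4.07 (SE 0.39, adjusted p = 1.75e-05). Gab1, a signalling adaptor imprinted by the same kind of mark, ranged from 184 to 332 CPM over the 9 libraries and was called in no comparison.

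H13, a signal peptide peptidase gene, had 264, 289 and 202 CPM in Pdgfra+, 260.3, 239.9 and 260.1 CPM in DP and 62.9, 79.6 and 75.3 CPM in Oct4+, and fell by 1.79 on the log2 scale (SE 0.16, edgeR adjusted p = 1.16e-05). Peg13, a paternal noncoding RNA within an intron of Trappc9, had 35.5, 26.0 and 36.7 CPM in Pdgfra+, 26.7, 19.9 and 16.9 CPM in DP and 3.26, 0.493 and 3.44 CPM in Oct4+, and fell by 3.76 (SE 0.50, adjusted p = 0.000130). Oct4+ stood below both other gates for H13 and Peg13. Peg13 overlaps Trappc9 on the same strand over 4725 bases, so its reads may include those of the host transcript. Peg12, of the Prader-Willi cluster, had 4.27, 3.69 and 1.57 CPM in Pdgfra+, 5.49, 6.84 and 4.18 CPM in DP and 1.47, 0.592 and 0.998 CPM in Oct4+, with Oct4+ lowest. Peg12 fell by 1.60 (SE 0.49, adjusted p = 0.0155), a call lost without Pdgfra+ replicate 1 (adjusted p = 0.0646) or Oct4+ replicate 2 (0.0531). Rasgrf1, a Ras exchange factor gene, had 32, 36 and 2 reads in Pdgfra+, DP and Oct4+, a ratio of Pdgfra+ to Oct4+ of 18.5 with a counting interval of 4.72 to 159. Its call was lost without any of 4 of the 6 libraries, Pdgfra+ replicates 1 and 3 and Oct4+ replicates 1 and 3 (adjusted p = 0.0660, 0.0507, 0.0865 and 0.0679).

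The noncoding RNAs of the Dlk1-Dio3 cluster rose together in Oct4+. Meg3 had 15.7, 12.2 and 9.29 CPM in Pdgfra+, 24.3, 12.6 and 8.10 CPM in DP and 55.0, 81.6 and 143 CPM in Oct4+. Rian, which carries small nucleolar RNAs, had 14.2, 11.5 and 6.78 CPM, then 26.8, 15.6 and 7.45 CPM, then 89.5, 105 and 145 CPM in the same order. Mirg, a host of microRNAs, had 0.977, 0.299 and 0.522 CPM in Pdgfra+, 2.49, 2.01 and 1.31 CPM in DP and 6.28, 9.17 and 18.3 CPM in Oct4+. Oct4+ lay above both other gates for the 3 RNAs, and only Mirg kept DP apart from Pdgfra+. From Pdgfra+ to Oct4+, Meg3 rose by 2.91 on the log2 scale (SE 0.45, edgeR adjusted p = 0.000319), Rian by 3.39 (SE 0.44, 0.000105) and Mirg by 4.23 (SE 0.57, 0.000139). Dlk1, the paternally expressed Notch-like ligand at the other end of the cluster, stayed between 0.244 and 3.88 CPM and was not called.

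Mest, a paternally expressed hydrolase gene, had the highest log2 fold change of the members tested. It stood at 3.78, 3.69 and 7.20 CPM in Pdgfra+, 5.73, 7.08 and 6.93 CPM in DP and 90.9, 129.9 and 193 CPM in Oct4+, and rose by 4.81 on the log2 scale (SE 0.35, edgeR adjusted p = 4.31e-06). Snrpn, the splicing-protein gene at the head of the Prader-Willi cluster, had 6.47, 5.98 and 4.49 CPM in Pdgfra+, 12.7, 18.5 and 14.2 CPM in DP and 62.3, 97.1 and 63.1 CPM in Oct4+, and rose by 3.71 (SE 0.26, adjusted p = 3.56e-06). DP overlapped Pdgfra+ for Mest and stood between the other gates without overlap for Snrpn. Nnat, a paternally expressed proteolipid gene, had 0.122, 0.0996 and 1.57 CPM in Pdgfra+, 0, 0.472 and 0.523 CPM in DP and 4.88, 1.97 and 21.7 CPM in Oct4+, and rose by 3.94 (SE 1.13, adjusted p = 0.0116). Without Oct4+ replicate 3, the library with the highest Nnat, the rise was 2.48 and the adjusted p was 0.0538.

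The Kcnq1 cluster was split. Phlda2, a maternally expressed gene that restrains placental growth, had 0.977, 0.996 and 0 CPM in Pdgfra+, 1.496, 5.31 and 0.654 CPM in DP and 27.9, 15.6 and 4.54 CPM in Oct4+, and rose by 4.60 from Pdgfra+ to Oct4+ on the log2 scale (SE 1.03, edgeR adjusted p = 0.00298). Oct4+ lay above Pdgfra+ but overlapped DP. Cdkn1c, the maternally expressed cell cycle inhibitor, had 7.45, 11.1 and 57.8 CPM in Pdgfra+, 2.62, 3.78 and 7.58 CPM in DP and 42.0, 26.2 and 9.09 CPM in Oct4+. Pdgfra+ and Oct4+ overlapped for Cdkn1c, with a log2 difference of 0.02, and DP lay below every Oct4+ library and overlapped Pdgfra+ at its lowest libraries. Kcnq1ot1, the paternal noncoding RNA of the cluster, ranged from 7.83 to 31.0 CPM with a log2 difference of -0.80 and was not called. Kcnq1ot1 overlaps Kcnq1 on the opposite strand over 93092 bases, so the reads of that pair may also be shared. Phlda2 and Cdkn1c were both highest among the Oct4+ libraries in replicate 1, where the fibroblast marker sum was highest at 171 CPM, and its part was not tested.

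Plagl1, a paternally expressed zinc-finger gene, rested on 1 library. It had 32.5, 15.2 and 34.0 CPM in Pdgfra+, 16.6, 3.66 and 4.97 CPM in DP and 33.02, 12.7 and 234 CPM in Oct4+. The difference between Oct4+ and Pdgfra+ was 1.77 on the log2 scale and not called, and without Oct4+ replicate 3 it was -0.25. The members left differed little. Inpp5f, a phosphoinositide phosphatase gene, fell by 0.96. Ndn, a growth suppressor gene of the Prader-Willi cluster, Zrsr1, a splicing factor gene, and Commd1, an endosomal trafficking gene, rose by 0.80, 0.81 and 0.69. The call of Ndn was lost without Pdgfra+ replicate 2 (adjusted p = 0.0632). The calls of Zrsr1 and Commd1 were lost without Pdgfra+ replicate 1 (adjusted p = 0.0503 and 0.0681) or replicate 2 (0.112 and 0.102) and without Oct4+ replicate 2 (0.0619 and 0.0716) or replicate 3 (0.0950 and 0.0939), and that of Commd1 also without Pdgfra+ replicate 3 (0.0506). Grb10, a growth factor receptor adaptor, differed by 1.16 with an edgeR adjusted p of 0.0520, and Impact, a regulator of translation under stress, differed by 0.46 without a call. Zrsr1 lies within Commd1 on the opposite strand, with an overlap of 4492 bases.

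**Figure D2:**
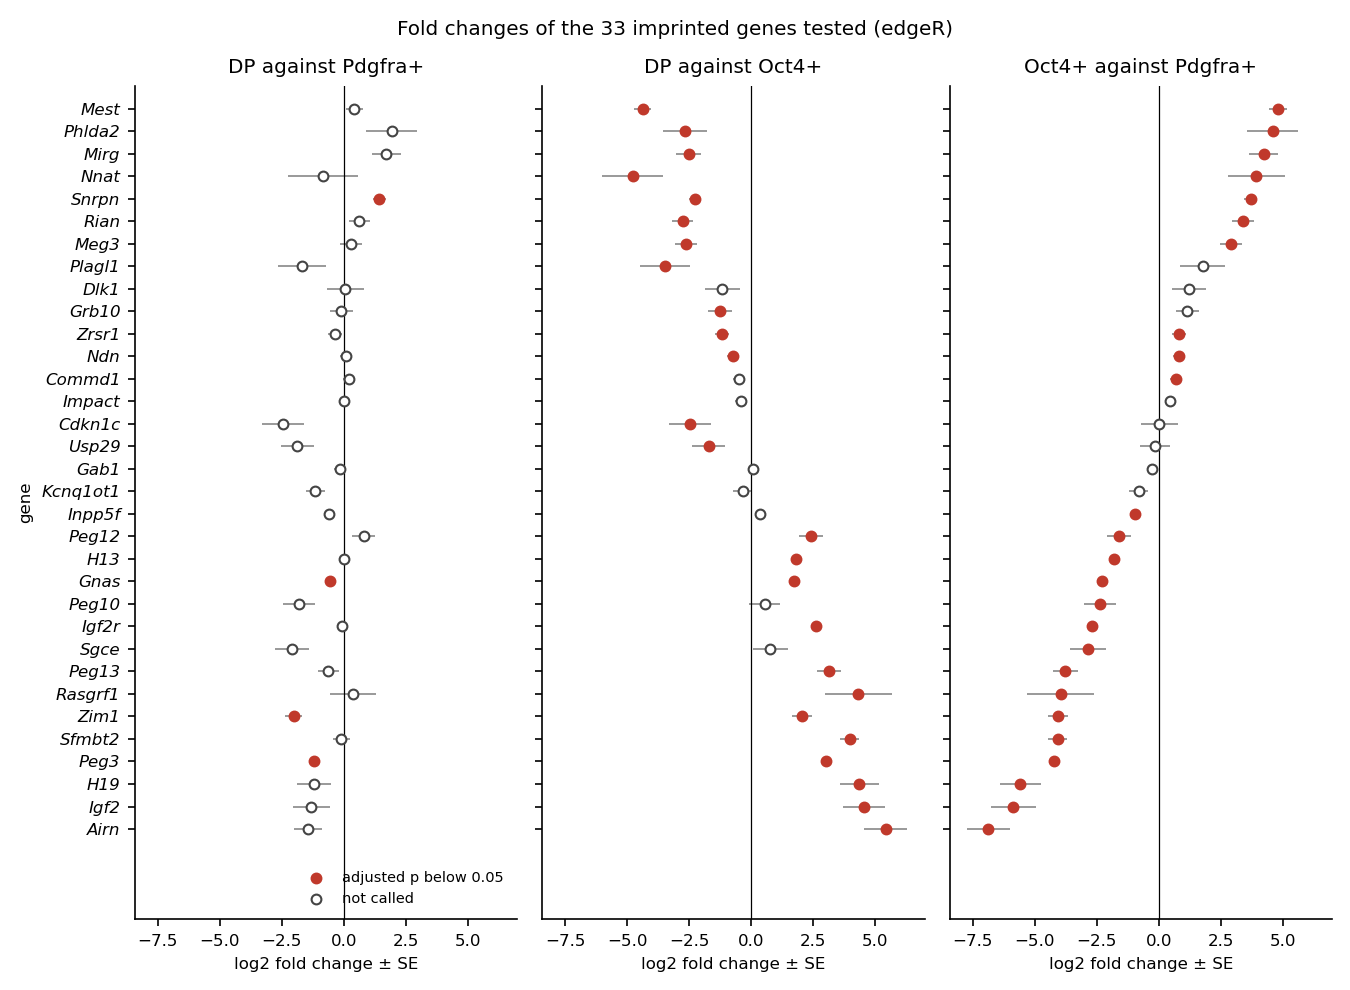
Log2 fold changes of the 33 tested members in the comparisons of DP with Pdgfra+ (left), DP with Oct4+ (middle) and Oct4+ with Pdgfra+ (right). Points carry an SE derived from the edgeR test statistic and are filled where the edgeR adjusted p was below 0.05. In the comparison of DP with Pdgfra+ 4 members are filled, and 25 are filled in each of the other comparisons.

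DP cells, which carried the receptor and the reporter, differed from Pdgfra+ by a median absolute log2 fold change of 0.63 over the tested members, against 0.33 over all tested genes, and from Oct4+ by 2.40, against 0.77. The DP comparisons share the DP libraries with each other and the Pdgfra+ or Oct4+ libraries with the one above. Against Pdgfra+, 4 of 33 members (12.1%) were called, 1 higher and 3 lower in DP, where 6.87% of all tested genes were called, 4.62% higher and 2.26% lower. An unadjusted p below 0.05 was reached by 12 members (36.4%) and by 25.5% of all tested genes. Peg3 fell by 1.19 on the log2 scale (SE 0.19, edgeR adjusted p = 0.0131), Zim1 by 2.03 (SE 0.36, 0.0173) and Gnas by 0.56 (SE 0.13, 0.0350). Snrpn rose by 1.43 (SE 0.25, adjusted p = 0.0173). Zim1 alone also passed the fold threshold of 1.5, against 3.89% of all tested genes, 3.20% higher and 0.691% lower. For 13 members the libraries did not overlap, against 34.2% of all tested genes. The adjusted p of Peg3 rose to 0.0586 without Pdgfra+ replicate 3. Zim1 and Snrpn each lost the call without Pdgfra+ replicate 2 (0.0571 and 0.0524), Pdgfra+ replicate 3 (0.0662 and 0.0746), DP replicate 2 (0.0601 and 0.0616) or DP replicate 3 (0.0643 and 0.0529). Gnas lost it without any of the 3 Pdgfra+ libraries (0.0655, 0.0950 and 0.123) and without DP replicate 2 or 3 (0.123 and 0.121).

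The same-numbered DP and Pdgfra+ libraries deviated together, and with the replicate number as a block 13 of 31 members tested (41.9%) were called, 2 higher and 11 lower in DP, against 20.2% of all genes tested in that fit, 10.4% higher and 9.86% lower. Snrpn rose by 1.44 on the log2 scale (edgeR adjusted p = 0.0192) and Mirg by 1.73 (0.0469). Among the genes that fell, Sgce changed by -2.17 (adjusted p = 0.0216), Cdkn1c by -2.09 (0.0193), Zim1 by -2.07 (0.0184), Peg10 by -1.86 (0.0190) and Plagl1 by -1.85 (0.0228). These members, of which Sgce and Peg10 share a cluster, were lower in each DP library than in the Pdgfra+ library of the same number. Airn changed by -1.62 (adjusted p = 0.0337), Igf2 by -1.45 (0.0259), H19 by -1.31 (0.0265), Peg3 by -1.17 (0.0184), Kcnq1ot1 by -1.16 (0.0184) and Gnas by -0.55 (0.0326). Peg3, Zim1, Gnas and Snrpn were also called without the block. The other 9 were not, with differences such as -1.83 for Peg10, -1.31 for Igf2 and -1.22 for H19. Igf2r, Sfmbt2, H13 and Gab1 were called in neither fit. The epiblast marker sum was higher in every DP library than in every Pdgfra+ library, at 733 to 1182 against 154 to 258 CPM, as was the trophectoderm marker sum, and their part in these differences was not tested.

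Against Oct4+, 25 of 33 members (75.8%) were called, 12 higher and 13 lower in DP, where 56.2% of all tested genes were called, 28.3% higher and 27.9% lower. The fold threshold was also passed by 22 (66.7%), 12 higher and 10 lower, against 27.7% of all tested genes, 13.1% higher and 14.6% lower. Libraries did not overlap for 21 of the 33, against 62.6% of all tested genes. The DP mean lay between the means of the other gates for 23 of 33 members. The share over all tested genes was not computed, so this count cannot be read as a trait of the members. Peg3 was higher in DP by 3.03 on the log2 scale (SE 0.20, edgeR adjusted p = 3.98e-06), Sfmbt2 by 3.97 (SE 0.39, 2.71e-05) and Igf2r by 2.63 (SE 0.22, 1.25e-05). Mest differed by -4.39 in DP (SE 0.34, adjusted p = 8.16e-06). Airn had 110 reads in DP and 3 in Oct4+, a ratio by summed reads over summed library sizes of 48.8 with a counting interval of 16.3 to 240.2, and Rasgrf1 had a ratio of 23.95 with an interval of 6.17 to 205. Peg10 and Sgce, called between Oct4+ and Pdgfra+, were not called here, with log2 differences of 0.53 and 0.77.

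Several members were lowest in DP. Cdkn1c differed from Oct4+ by -2.48 on the log2 scale (SE 0.83, edgeR adjusted p = 0.0272), Plagl1 by -3.47 (SE 1.01, 0.0140) and Usp29 by -1.71 (SE 0.66, 0.0489). These calls rested on few libraries. That of Cdkn1c was lost without DP replicate 1 or 2 or Oct4+ replicate 1 (adjusted p = 0.0936, 0.0742 and 0.0988), and that of Plagl1 without DP replicate 3 or Oct4+ replicate 3 (0.0527 and 0.0843). Plagl1 was -1.44 without Oct4+ replicate 3. That of Usp29 was lost without DP replicate 2 or 3 or Oct4+ replicate 2 or 3 (0.138, 0.149, 0.0584 and 0.202), with a value of -1.04 without Oct4+ replicate 3. Phlda2 lost its call without DP replicate 1 or 3 or Oct4+ replicate 1 (0.0913, 0.0849 and 0.115). Rasgrf1 lost it without DP replicate 1 or Oct4+ replicate 1 or 3 (0.0716, 0.0665 and 0.0509). Grb10 and Ndn each lost theirs without any of 5 of the 6 libraries (0.0788 to 0.143 and 0.0532 to 0.0732). Grb10 kept its call without Oct4+ replicate 3, and Ndn without Oct4+ replicate 1.

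The proteins that keep imprints through cell division were measured beside the members, as 12 fixed genes. None of the 12 was called between DP and Pdgfra+ by edgeR, against 6.87% of all tested genes. An unadjusted p below 0.05 was reached by 2 of them (16.7%, against 25.5%). DESeq2 called Arid4b alone, where it called 12.4% of all genes. With 12 genes, such counts do not set the list apart from all genes. Between Oct4+ and Pdgfra+ 9 were called (75.0%, against 63.2% of all tested genes), 8 higher and 1 lower in Oct4+. Between DP and Oct4+ 10 were called (83.3%, against 56.2%), 1 higher and 9 lower in DP. Zfp57, which encodes the zinc-finger protein that binds methylated imprinting control regions, had 49.8, 55.7 and 59.8 CPM in Pdgfra+, 47.7, 72.3 and 50.3 CPM in DP and 453, 351 and 423 CPM in Oct4+, a rise of 2.89 on the log2 scale (edgeR adjusted p = 2.58e-06). Its corepressor partner Trim28 rose by 1.94, Dppa3, which protects methylation in the early embryo, by 4.63, and Uhrf1, which guides the maintenance methyltransferase, by 1.63. Zfp445, a second zinc-finger gene of the same role, was the gene that ran the other way, with 102, 91.2 and 97.0 CPM in Pdgfra+ against 49.1, 52.5 and 38.7 CPM in Oct4+, and fell by 1.05.

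A further list of 41 imprinted genes held 25 that were tested. Between Oct4+ and Pdgfra+ 13 were called (52.0%, against 63.2% of all tested genes), 10 higher and 3 lower in Oct4+. Between DP and Oct4+ 15 were called (60.0%, against 56.2%), 2 higher and 13 lower in DP. The share called was thus below or near that of all genes. Slc38a4, an amino acid transporter gene imprinted through a histone mark of the egg, was higher in Oct4+ by 7.24 on the log2 scale, Ampd3 by 5.81, Cobl by 5.55, Zfp264 by 4.803 and Qpct by 4.27, and Smoc1 fell by 2.23. Between DP and Pdgfra+ 4 were called (16.0%, against 6.87%). Slc38a4, Ampd3 and Zdbf2 were higher in DP by 3.61, 2.56 and 1.88, and Smoc1 fell by 1.19.

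The single-cell libraries allowed the members to be read within cells of an endoderm profile. Endoderm cells were those with 3000 CPM or more in the sum of Sparc, Col4a1 and Col4a2, which encode basement membrane proteins of the primitive endoderm, and the rest are called other cells. There were 1586 endoderm and 5310 other cells without 4OHT (median 14493.5 and 15987 UMIs) and 6825 and 458 with it (12078 and 2632.5 UMIs). Between 2000 and 5000 CPM, near the threshold, lay 223 and 205 cells. Pou5f1, the targeted gene, was at 16.1 CPM in endoderm and 46.9 CPM in other cells without 4OHT, and at 2.21 and 17.2 CPM with it, and the labels do not say whether its 3′ end lies in the deleted part. The epiblast marker sum was 2700 CPM in endoderm and 6701 CPM in other cells without 4OHT, and 669 and 758 CPM with it. Over all barcodes of a library Dppa5a made up most of it, at 4104 of 5756 CPM without and 630 of 672 CPM with 4OHT. With 4OHT, Dppa5a was lower in other cells, at 412 CPM. Every other epiblast marker was higher there than over all barcodes, such as Sox2 at 85.2 against 3.93 CPM. The sum is used below without a split by gene, so Dppa5a weighs most in it. Of the barcodes of other cells with 4OHT, 271 had under 5000 UMIs, 45.2% had over 10% mitochondrial UMIs and 46 were trophectoderm-marker cells. These held 3 or more UMIs summed over 7 trophectoderm markers (the bulk set without Eomes), a rule that favours deep barcodes. Their median was 16361.5 UMIs, against 1974.5 in the remaining other cells, and 49 endoderm cells also met the rule. Over all other cells with 4OHT, Cdx2, Krt7 and Gata3 had 239, 101 and 51 UMIs, and Plac1, Hand1, Tfap2a and Elf5 had 16, 6, 4 and 1. The libraries shared 21 barcode sequences. With 1 library per condition no test was possible, values are summed UMIs as CPM, and their 95% Poisson intervals cover counting error only.

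Without 4OHT, 22 members reached 20 CPM in endoderm or other cells. By at least 2-fold, 8 were higher and 7 lower in endoderm cells (68.2% together), where 26.6% of all genes above the same floor were, 18.4% higher and 8.20% lower. Since the floor was set on the higher class, these are descriptions. Airn had 30.04 CPM in endoderm and 0.754 CPM in other cells, a ratio of 39.8 (interval 30.7 to 52.5), and H19 had 124 and 13.8 CPM, a ratio of 9.03 (8.44 to 9.68). Sfmbt2 had 102 and 12.6 CPM (8.13, 7.56 to 8.75) and Peg3 589 and 128 CPM (4.61, 4.50 to 4.73). H13, Gnas, Sgce and Igf2r were higher by 3.77, 2.83, 2.47 and 2.09 times. In the other cells Phlda2 had 67.2 against 9.52 CPM, a ratio of 7.06 (6.21 to 8.07), Mest 64.4 against 11.6 CPM (5.55, 4.93 to 6.26) and Snrpn 80.3 against 24.7 CPM (3.25, 2.99 to 3.53). Grb10, Plagl1, Rian and Meg3 were higher there by 3.18, 3.09, 2.40 and 2.03 times. Peg10, Kcnq1ot1, Impact, Gab1, Zrsr1, Commd1 and Inpp5f differed by less than 2-fold. Another line and another chemistry were used than in bulk, so levels are not set side by side between the assays.

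**Figure D3:**
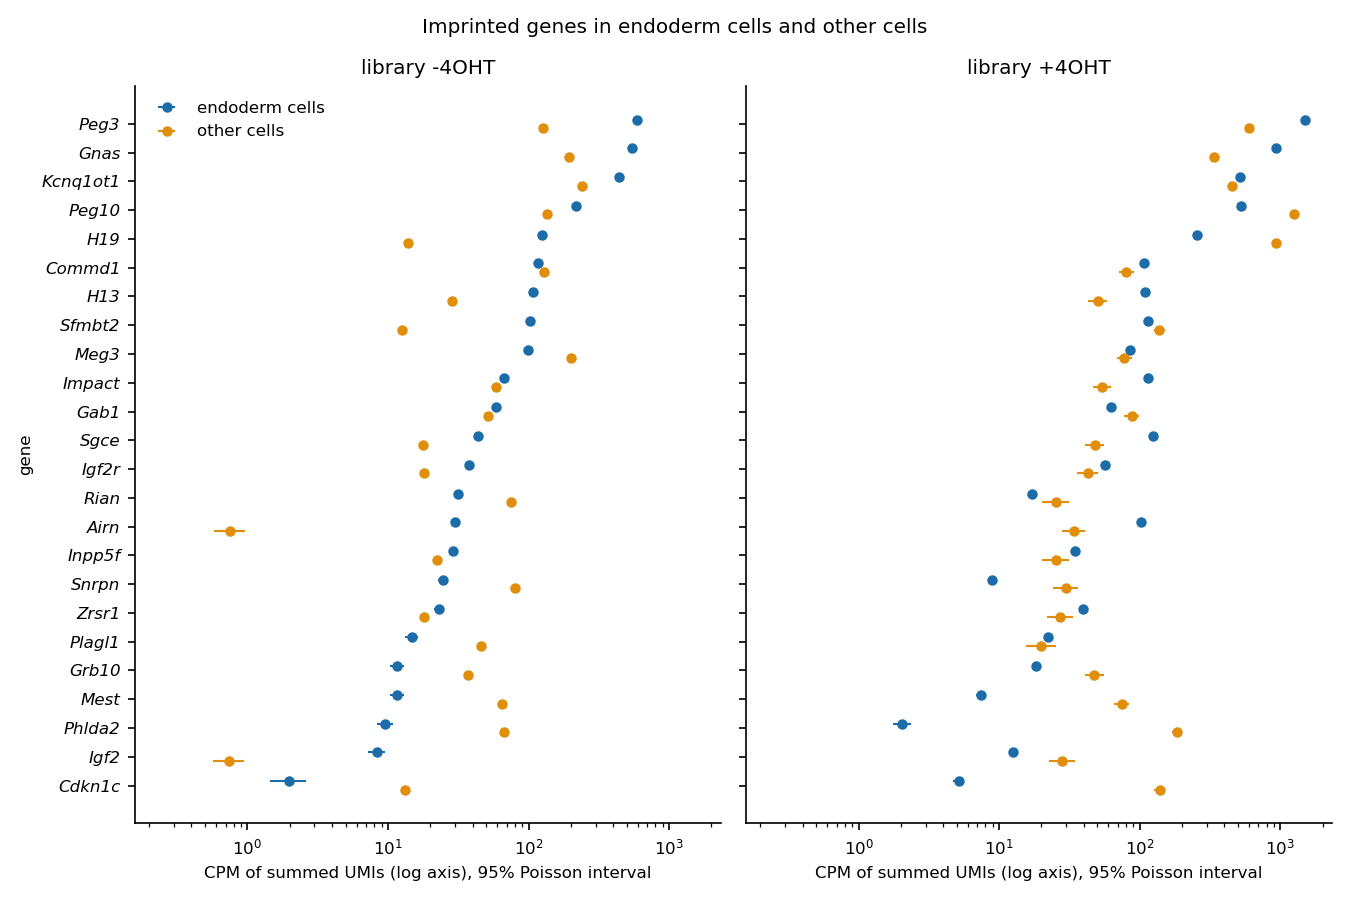
CPM (log axis) of summed UMIs for 24 members in endoderm and other cells of the -4OHT and +4OHT libraries, with 95% Poisson intervals. Airn, H19, Sfmbt2 and Peg3 are higher in the endoderm cells of the -4OHT library, and H19 is higher in the other cells of the +4OHT library (932 against 255 CPM).

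With 4OHT, 24 members reached the floor, with 6 higher and 8 lower in endoderm cells by at least 2-fold (58.3% together), against 25.2% of all genes, 15.8% higher and 9.35% lower. Peg3 had 1510 CPM in endoderm and 598 CPM in other cells, Gnas 933 and 336 CPM and Airn 101 and 34.1 CPM, and all 3 kept the direction they had without 4OHT. H19 did not, with 255 CPM in endoderm and 932 CPM in other cells, a ratio of other to endoderm cells of 3.65 (3.51 to 3.79). Sfmbt2, Meg3 and Plagl1 also changed direction, but within 2-fold, with endoderm to other ratios of 0.83, 1.10 and 1.11. The intervals of Meg3 and Plagl1 included equality. Igf2r and Rian kept direction but fell under 2-fold (1.32 and 0.68). Igf2, under the floor without 4OHT at 8.30 CPM in endoderm and 0.742 CPM in other cells, had 12.6 and 28.1 CPM with it. Phlda2 had 2.04 and 184 CPM, Cdkn1c 5.18 and 139 CPM, Mest 7.42 and 74.3 CPM and Peg10 529 and 1250.3 CPM. In the 46 trophectoderm-marker cells alone, H19 stood at 2175 CPM, Peg10 at 2436 CPM, Cdkn1c at 260.1 CPM and Phlda2 at 243 CPM. In the other cells without them, H19 was at 509 CPM, Peg10 at 846 CPM, Cdkn1c at 98.0 CPM and Phlda2 at 164 CPM. Without the 95 trophectoderm-marker cells of both classes, 11 members passed 2-fold in place of 14. Trophectoderm-marker cells were set apart after the data were seen.

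Between endoderm cells with and without 4OHT, 19 members reached the floor, and 5 were higher and 1 lower with 4OHT by at least 2-fold (31.6% together), against 11.3% of all genes, 8.04% higher and 3.31% lower. Airn was at 30.04 CPM without and 101 CPM with 4OHT, a ratio of 3.38 (3.14 to 3.64), Sgce at 43.7 and 124 CPM (2.83, 2.66 to 3.01) and Peg3 at 589 and 1510 CPM (2.56, 2.52 to 2.61). Peg10 was at 219 and 529 CPM (2.42, 2.35 to 2.49) and H19 at 124 and 255 CPM (2.05, 1.98 to 2.13). Usp29, the divergent neighbour of Peg3, was under the floor, at 5.03 CPM without and 13.7 CPM with 4OHT (2.72, 2.26 to 3.28). Its ratio of endoderm to other cells was 1.46 without and 1.74 with 4OHT, against 4.61 and 2.52 for Peg3. Snrpn was at 24.7 CPM without and 8.88 CPM with 4OHT. Igf2r, Kcnq1ot1, Meg3, Gnas, H13 and Sfmbt2 were among the 13 members within 2-fold. The epiblast marker sum, in which Dppa5a weighed most, moved between these cells from 2700 to 669 CPM. Its part in the differences was not tested. H19 stood close to the 2-fold limit and was under it in 6 of the 7 alternatives, with log2 ratios of 0.57 to 0.99, and above it only without fibroblast-marker cells. As a mean of per-cell CPM, which gave H19 its lowest ratio, Peg10 was under it too, at 0.91.

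The members differed in how evenly their RNA was spread over endoderm cells. Every cell was thinned to 5000 UMIs, which left out 120 cells without and 439 with 4OHT, and the variance over cells was divided by the mean, a ratio near 1 when counts scatter by chance sampling alone. Among genes with at least 0.05 UMIs per cell, 10 of 21 members (47.6%) lay above the 95th percentile of that ratio without 4OHT, and again 10 of 21 with it, against 5.01% of all genes in each library. In both libraries these were H19, Igf2, Meg3, Rian, Peg10, Peg3, Kcnq1ot1, Gnas, Grb10 and Plagl1. Gab1 was near the sampling value, at 1.01 and 1.04, as were Commd1 at 1.03 and 1.02 and Zrsr1 at 0.996 and 1.09. The median gene had 1.06 and 1.05, and genes were not matched on mean level. In endoderm cells kept after the removal of high-mitochondrial, fibroblast-marker, trophectoderm-marker and high-UMI barcodes the count was 10 of 21 in each library again. In other cells it was 8 of 24 members (33.3%) without and 7 of 26 (26.9%) with 4OHT, against 5.01% of all genes, so the spread was not particular to endoderm cells. The spread was examined after other values of the cells had been seen.

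H19 was concentrated in few cells. Without 4OHT its mean was 0.805 UMIs per thinned cell, and 12.1% of cells held a UMI where a Poisson count of that mean gives 55.3%. A set of 66 cells with 5 or more UMIs (4.50%) held 81.4% of its UMIs, and the ratio of variance to mean was 19.1. With 4OHT the mean was 1.20, and 25.9% of cells held a UMI where Poisson gives 69.8%, with 492 cells at 5 or more (7.70%) and a ratio of 11.4. Among other cells without 4OHT, which lack the endoderm profile, 2.41% held an H19 UMI at the same thinned depth. Among the 187 other cells with 4OHT that had 5000 UMIs, 44.4% did, with a mean of 4.48, above the endoderm cells of that library. In cells as deposited, 18.8% and 35.2% of endoderm cells held one.

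Meg3 also stood in fewer cells than a Poisson count gives. It had 0.415 UMIs per thinned cell without 4OHT and 0.431 with it, and was found in 16.1% and 9.41% of cells where Poisson gives 34.0% and 35.0%. With 4OHT 223 cells (3.49%) held 5 or more UMIs, up to 38, and the ratio of variance to mean was 8.80. In other cells without 4OHT, 47.4% held a Meg3 UMI. Peg3 was in most endoderm cells, at 77.4% and 94.9%, yet still spread with ratios of 4.20 and 5.14, and Peg10 was in 39.4% and 63.9% with ratios of 5.04 and 6.20.

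**Figure D4:**
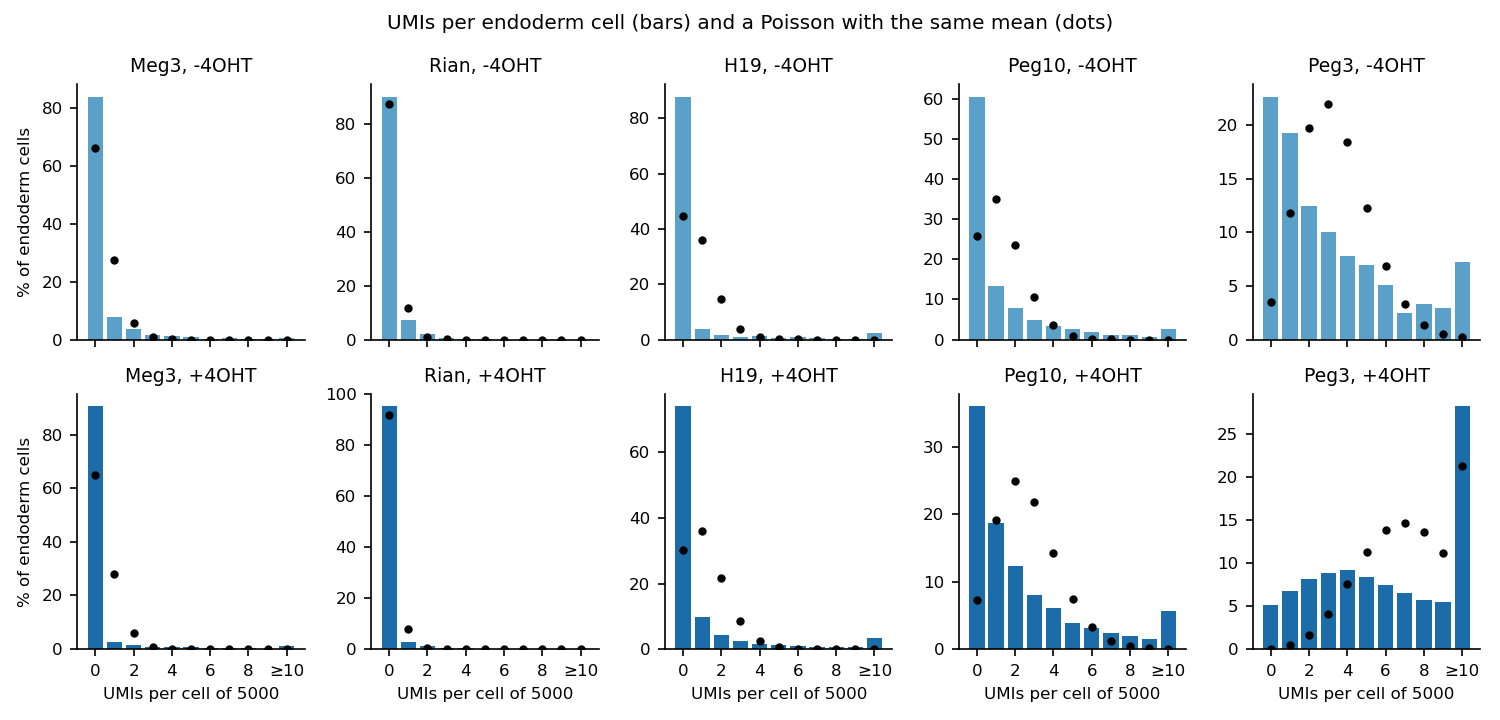
Percent of endoderm cells (vertical axis) by UMIs per cell after thinning to 5000 UMIs (horizontal axis, 10 or more pooled) for Meg3, Rian, H19, Peg10 and Peg3, with bars for the cells and dots for a Poisson distribution of the same mean. The bars of H19 and Meg3 exceed the dots at 0 UMIs and at high counts, with H19 found in 12.1% of -4OHT cells where the Poisson value is 55.3%.

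Cells with much Meg3 also held the other noncoding RNAs of its cluster. With 4OHT, the 223 endoderm cells with 5 or more Meg3 UMIs had Rian at 297 CPM (331 UMIs) and Mirg at 43.0 CPM (48 UMIs), and the 5785 cells with 0 Meg3 UMIs had Rian at 1.38 CPM (40 UMIs) and Mirg at 0.242 CPM (7 UMIs). Dlk1 had 0 and 5 UMIs in these sets, so its level could not be compared. Without 4OHT, 35 cells with 5 or more had Rian at 251 CPM and Mirg at 34.3 CPM, and 1230 cells with 0 had 8.13 and 0.976 CPM. Rian and Mirg were thus higher in the Meg3-high cells of both libraries, while Peg3 differed little, with 1325 against 1491 CPM with 4OHT and 863 against 707 CPM without it. Across cells, Pearson's r of log-transformed thinned UMIs between Meg3 and Rian was 0.54 over 1466 cells without and 0.71 over 6386 cells with 4OHT, and between Meg3 and Mirg 0.23 and 0.35. The cells of a library share their free RNA, and Meg3, Rian and Mirg lie on 1 strand of 1 cluster.

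Other markers were read in the same sets. The fibroblast marker sum was 200 against 117 CPM with 4OHT and 394 against 68.3 CPM without it, higher in the Meg3-high cells. In the filtered endoderm cells it was 83.1 against 86.9 CPM with 4OHT and 62.1 against 60.4 CPM without it, and Rian still stood at 297 against 1.63 CPM with 4OHT. The epiblast marker sum was lower in the Meg3-high cells, at 555 against 665 CPM with 4OHT and 1097 against 2302 CPM without it. H19 was lower in Meg3-high cells with 4OHT, at 109 against 245 CPM, and higher without it, at 371 against 150.2 CPM, so its direction differed between the libraries.

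**Figure D5:**
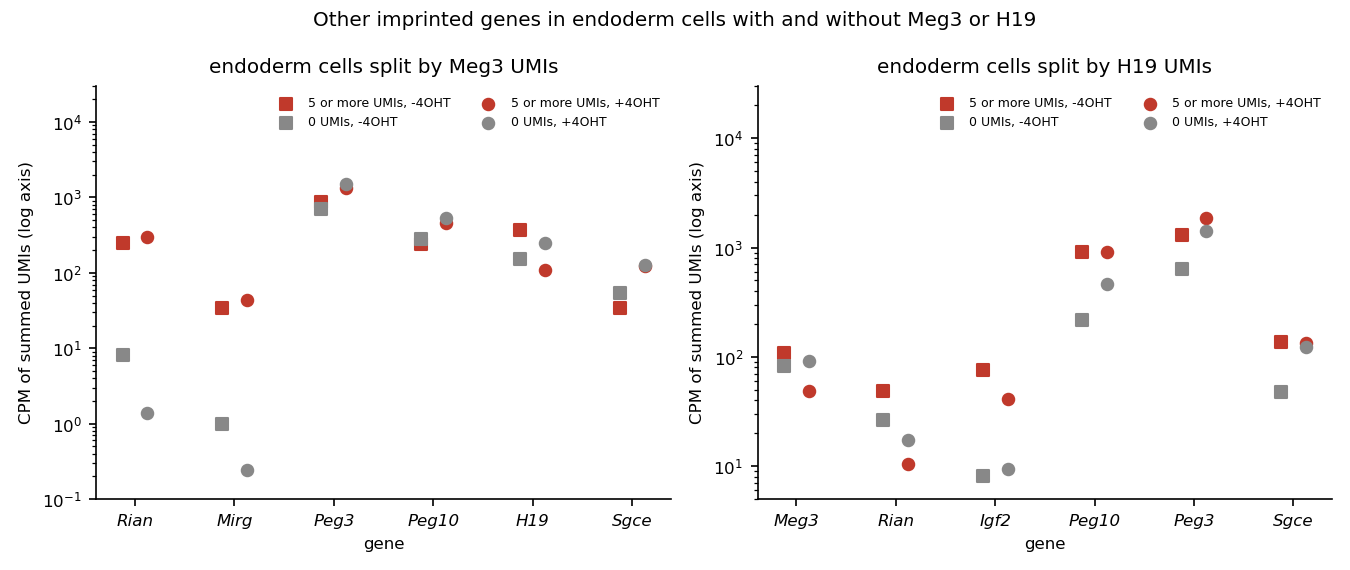
CPM of summed UMIs (vertical log axis) of other members, by gene, in endoderm cells with 5 or more (red) or 0 (grey) UMIs of Meg3 (left) or H19 (right), with squares for the -4OHT and circles for the +4OHT library. In the Meg3 panel the red and grey points lie farthest apart for Rian and Mirg (Rian 297 against 1.38 CPM with 4OHT), and in the H19 panel for Igf2.

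Cells with much H19 held more Igf2 and Peg10. With 4OHT, Igf2 was at 41.1 CPM (101 UMIs) in the 492 cells with 5 or more H19 UMIs and at 9.34 CPM (221 UMIs) in the 4732 cells with 0. Peg10 was at 908 against 465 CPM and Peg3 at 1854 against 1417 CPM. Without 4OHT, Igf2 was at 75.8 CPM (25 UMIs) in 66 cells and at 8.07 CPM (52 UMIs) in 1288 cells, Peg10 at 903 against 218 CPM and Peg3 at 1312 against 631 CPM. All 3 genes were higher in the H19-high cells of both libraries. The epiblast marker sum was 930.3 against 2464 CPM without 4OHT, lower in H19-high cells, and 789 against 622 CPM with it, higher there. The fibroblast marker sum was 130 against 87.3 CPM without 4OHT and 116 against 138 CPM with it. In the filtered endoderm cells it was 133 against 52.9 CPM without 4OHT and 114 against 81.5 CPM with it. The part of these markers was not tested. Across cells, Pearson's r between H19 and Peg10 was 0.32 without and 0.19 with 4OHT.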

How the data were processed

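The study compared sorted populations of nEnd in 9 bulk libraries (3 each of Pdgfra+, DP and Oct4+) and cells of Oct4LOF nEnd in 2 single-cell libraries. The authors deposited raw counts per gene for the bulk libraries (NEBNext directional kit, single-end reads). Aligner, counter and strand setting: not given in the sources used here. They also deposited UMI counts per gene and barcode from Cell Ranger 6.1.2 (10x 3′ chemistry, mm10). The 35 blank lines of the bulk table name no gene and were dropped. Bulk totals were 8019631 to 11642571 counts, and replicate pairs differed by more than sampling noise, with chi-square per degree of freedom of 16.7 to 36.6 over 9 pairs, so each library counted once.

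Counts of all 9 libraries were fitted together with edgeR 4.0.16 (R 4.3.3; filterByExpr, TMM, quasi-likelihood test), with Benjamini-Hochberg adjustment over 14185 genes, a threshold of 0.05 and, as a second call, an absolute log2 fold change above 1.5. Each SE is the absolute log2 fold change divided by the square root of the F statistic of that test, and is not reported by the fit itself. Deviations from group means of log CPM correlated between same-numbered DP and Pdgfra+ libraries (0.271, 0.477 and 0.321), so that the numbers were taken to pair these groups and the blocked fit is given. Other group pairs did not reach 0.1 in every pair. DESeq2 1.42.0, other scaling, other filters, the 6 libraries compared alone and each library left out were alternatives. The scripts were tested on simulated data. For DP against Pdgfra+, edgeR recovered 49% of 100 planted 2-fold changes and 89% of 100 planted 4-fold changes, and DESeq2 68% and 97%. A gene that was not called may therefore still differ.

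Single-cell UMIs were summed per class (Python 3.11.15, numpy 2.4.6, scipy 1.17.1) and set side by side by ratio, with 95% Poisson intervals and no test. No doublet caller was run. Barcodes over 2 times the median UMIs were left out as an alternative. Thinning drew 5000 UMIs per cell without replacement.

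The members and lists were chosen with earlier results of these data known. Values in every library are given for members called past the fold threshold in any bulk comparison, except Rasgrf1, which is given by summed reads. The others are given by range, reads or fold change, and up to 5 genes of the added lists by size of change. Positions and promoters are from RefSeq and GENCODE on GRCm38.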

Additional observations from a re-analysis of the deposited data

How the results depend on the processing

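The counts of members called between Oct4+ and Pdgfra+ (25; 21 to 30 over the alternatives, 24 to 28 with a library left out) and between DP and Oct4+ (25; 21 to 27, and 22 to 25) stayed within 1.5 times. The count between DP and Pdgfra+ (4) did not. It was 7 with DESeq2 (12.4% of all genes), 10 without the low-count filter (6.70%), 1 with the fold threshold, and 0 to 6 with a library left out (among Pdgfra+ libraries, 3 when replicate 1 was dropped, 1 for replicate 2 and 0 for replicate 3; among DP libraries, 6, 1 and 1). With the replicate block it was 13. The replicate number did not pair the other groups (deviation correlations of 0.0383, -0.00412 and -0.0465 for Oct4+ with Pdgfra+, and 0.0222, -0.0728 and 0.152 for DP with Oct4+), and the block gave 24 and 21 calls there. Plagl1 between Oct4+ and Pdgfra+ ranged from -0.25 to 2.29 on the log2 scale with a library left out. In the +4OHT library 7 members in place of 14 passed 2-fold between endoderm and other cells with the mean of per-cell CPM, where Igf2 turned to a log2 ratio of 0.0083. Causes were not tested. Of single members in bulk, 721 values kept direction and call, 29 became called, 63 lost the call and 1 turned. With 1 single-cell library per condition, no replicate error is known.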
